A study of Mus musculus with 6 samples.

Results

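The respiratory chain of mitochondria is built from proteins encoded in 2 genomes, and its genes were compared here between IL-11+ and IL-11- stromal cells of the inflamed mouse colon. Members were chosen by gene symbol, as rows whose symbol begins with MT- or names a nuclear subunit of complex I (*Ndufa*, *Ndufb*, *Ndufc*, *Ndufs*, *Ndufv*), complex II (*Sdha* to *Sdhd*), complex III (*Uqcr*), complex IV (*Cox4* to *Cox8*) or complex V (*Atp5*). The rule found 114 of the 20327 symbols, of which 31 are MT- rows and 83 are nuclear rows. *Cox4i2* and *Ndufa4l2*, isoforms of subunits that are known in vascular mural cells, were left out by the rule and are given separately.

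The cells came from male C57BL/6 mice of 9 to 15 weeks of age (3 mice per the study's methods) that carried the *Il11-Egfp* transgene, a bacterial artificial chromosome with an *Egfp* cassette placed in *Il11*, from a single chosen transgenic line. All mice had drunk 1.5% dextran sulfate sodium (DSS), which injures the colonic epithelium and causes colitis, for 5 days, and the colon was taken on day 7. Dead cells and cells positive for Ter119, CD45, CD31 or EpCAM were gated out, and the remaining cells were sorted by EGFP into an IL-11+ group (EGFP+, 3 libraries) and an IL-11- group (EGFP-, 3 libraries). Both groups therefore share the transgene and the DSS treatment, and neither untreated mice nor mice without the transgene are part of this comparison. RNA was read by 5′Tag-seq, which counts tags from the 5′ side of polyA-captured transcripts, and library totals were 1057170, 1078179 and 1169817 for IL-11- replicates 1, 2 and 3 and 1046538, 1022851 and 1049048 for their IL-11+ counterparts. As a check of the sort, *Il11* stood at 26.7, 48.1 and 73.1 normalized CPM (tag counts scaled to a common library size with TMM factors) in the IL-11- libraries and at 1438, 743 and 2535 in the IL-11+ libraries (log2 fold change 4.98, adjusted p = 1.01e-07 in edgeR's quasi-likelihood test).

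As background, electrons from NADH enter the chain at complex I and those from succinate at complex II, pass through ubiquinone to complex III and by cytochrome c to complex IV, where oxygen is reduced. Complexes I, III and IV pump protons, and complex V, the ATP synthase, uses the proton gradient to make ATP. The mitochondrial genome encodes core subunits of complexes I, III, IV and V together with the ribosomal and transfer RNAs needed to translate them, and it is transcribed as long precursors that are cut at the transfer RNAs. All other subunits, and the whole of complex II, are encoded in the nucleus and imported.

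MT- transcripts took a smaller share of tags in IL-11+ than in IL-11- cells, whereas the share of nuclear subunits was slightly larger. The 13 MT- mRNA rows held 6.38%, 6.35% and 5.86% of the total in IL-11- replicates 1, 2 and 3 and 3.68%, 3.42% and 3.54% in IL-11+ replicates 1, 2 and 3. All 3 IL-11+ libraries were below all 3 IL-11- libraries, with means of 6.19% ± 0.291 and 3.55% ± 0.128 (SD, n = 3). Exact 95% Clopper-Pearson intervals, which cover counting error only, ran from 5.82% to 5.9% for the lowest IL-11- library and from 3.64% to 3.71% for the highest IL-11+ library. The 2 MT- ribosomal RNA rows varied more, at 2.56%, 3.1% and 1.45% against 1.36%, 1.25% and 0.89%. IL-11- replicate 3 and IL-11+ replicate 3 were the lowest of their groups for these ribosomal RNAs. Nuclear subunits held 0.638%, 0.672% and 0.681% of tags in the IL-11- libraries and 0.694%, 0.742% and 0.751% in the IL-11+ libraries. These groups also did not overlap, but the lowest IL-11+ value was close to the highest IL-11- value. With MT- and nuclear ribosomal RNA tags taken out of the denominator, nuclear subunits held 0.747%, 0.792% and 0.789% against 0.789%, 0.838% and 0.845%, and the groups overlapped. MT- mRNA tags per nuclear subunit tag came to 10, 9.45 and 8.61 in the IL-11- libraries and to 5.3, 4.61 and 4.72 in the IL-11+ libraries. In bulk samples, fewer cells of a type with many mitochondria and less mitochondrial RNA per cell cannot be told apart.

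**Figure D1:**
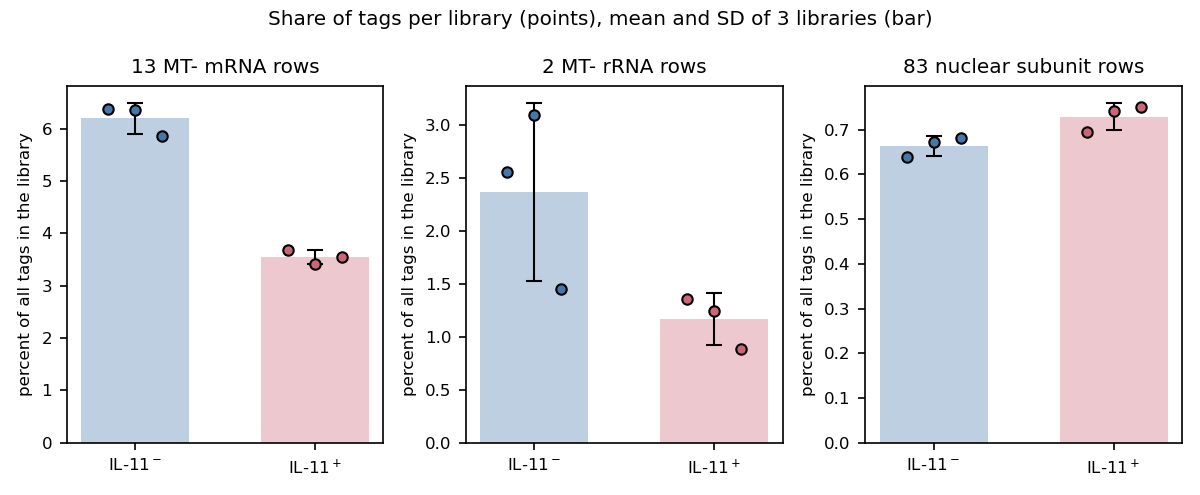
Percent of all tags in each library that fell on MT- mRNA rows, MT- ribosomal RNA rows and nuclear subunit rows (y axes, each from 0). Points are libraries, bars are group means and error bars are SD (n = 3). MT- mRNA means were 6.19% in IL-11- and 3.55% in IL-11+ cells, and nuclear means were 0.663% and 0.729%.

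Per-gene differences came from a fit over all 9334 genes that reached 10 tags in 3 or more of 6 libraries (edgeR's quasi-likelihood test, Benjamini-Hochberg adjustment over all of them). Of the 31 MT- rows, 15 passed this filter, namely the 13 mRNAs and both ribosomal RNAs, and 14 of these 15 were lower in IL-11+ cells at an adjusted p under 0.05, against 8.7% of all tested genes. Each of the 15 reached 10 tags in both groups. Of all tested genes, 334 reached it in only 1 group, and among the other 9000, 6.79% were called higher and 6.81% lower. No MT- gene was higher at either an adjusted or an unadjusted p under 0.05 or in DESeq2, against 6.84% of all tested genes called higher. When a fold change over 2 was also required, no MT- gene was called by edgeR or DESeq2 or with the unadjusted p, against 6.37% of all genes called lower and 3.44% called higher by adjusted p, and 7.5% and 3.82% by unadjusted p. On the unadjusted p alone, 14 were lower, against 14.5% of all genes, and DESeq2 called 12 lower by adjusted p, against 6.51% of all genes. Without IL-11- replicate 3, IL-11+ replicate 1 and IL-11+ replicate 2, the fold rule called 4, 2 and 1 MT- genes lower, against 4.61%, 5.54% and 5.77% of all genes. The median log2 fold change of the 15 MT- genes was -0.71, and that of all tested genes was -0.01. With the replicate number as a block, 14 MT- genes were lower, against 11.2% of all tested genes called lower in that fit. Without the block, the number of calls depended on which libraries were in the fit. It was 6, 5, 6 and 9 MT- genes lower without IL-11- replicate 1, IL-11- replicate 2, IL-11+ replicate 2 and IL-11+ replicate 3. Over all genes, the lower calls by adjusted p alone then numbered 465, 448, 623 and 733, where the fit to all libraries gave 812. *MT-Co3*, *MT-Cytb*, *MT-Nd4*, *MT-Nd4l* and *MT-Nd5* were called in each of the 17 other settings run.

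Among subunits of complex I, *MT-Nd4l*, a small membrane subunit, stood at 2871, 2798 and 2511 normalized CPM in IL-11- replicates 1, 2 and 3 and at 1476, 1511 and 1382 in IL-11+ replicates 1, 2 and 3. No IL-11+ library came near the lowest IL-11- library, and the log2 fold change was -0.90 (SE 0.165, adjusted p = 0.000717). *MT-Nd4*, one of the antiporter-like proton-pumping subunits, stood at 2845, 2560 and 1953 against 1429, 1335 and 1168 normalized CPM (log2 fold change -0.90, SE 0.182, adjusted p = 0.00172). IL-11- replicate 3 was the lowest of its group. *MT-Nd5*, a second subunit of this kind, stood at 1880, 1706 and 1524 against 1035, 899 and 977 normalized CPM (log2 fold change -0.81, SE 0.166, adjusted p = 0.00196). The smaller differences of this complex belonged to *MT-Nd1*, which lies next to the ubiquinone-binding site, and *MT-Nd2*, another pumping subunit. *MT-Nd1* stood at 2696, 2671 and 2349 against 2042, 1687 and 1588 normalized CPM (log2 fold change -0.54, adjusted p = 0.0403), and *MT-Nd2* had a log2 fold change of -0.64 (adjusted p = 0.0142). The groups did not overlap for either of them. *MT-Nd1* lost its call without IL-11- replicates 1 and 2 and IL-11+ replicates 2 and 3 (adjusted p = 0.13, 0.165, 0.168 and 0.124) and with no filter (adjusted p = 0.0571), and *MT-Nd2* without IL-11- replicates 1 and 2 and IL-11+ replicate 2 (adjusted p = 0.0782, 0.0765 and 0.087). *MT-Nd6*, the only one of the 13 mRNAs on the minus strand of the annotated genome, had 101, 117 and 103 against 72, 58 and 49 tags, and its log2 fold change was -0.68 (SE 0.204, adjusted p = 0.0284). The call was lost without IL-11- replicates 1 and 2 and IL-11+ replicates 2 and 3 (adjusted p = 0.0609, 0.142, 0.0979 and 0.125) and in DESeq2 (adjusted p = 0.0858). The exception was *MT-Nd3*, a subunit of the hinge region between the membrane arm and the peripheral arm, at 674, 732 and 497 against 528, 464 and 601 normalized CPM. Its groups overlapped, and its log2 fold change of -0.26 did not pass the test (SE 0.18, adjusted p = 0.405).

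*MT-Cytb*, the cytochrome b of complex III and its only subunit from the mitochondrial genome, stood at 6137, 6561 and 5649 normalized CPM in the IL-11- libraries and at 3780, 2833 and 2855 in the IL-11+ libraries. IL-11+ replicate 1 was the highest of its group and still below every IL-11- library. Its log2 fold change, -0.95 (SE 0.183, adjusted p = 0.00111), was the furthest from 0 among the 13 mRNAs in this fit.

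For complex IV, *MT-Co1*, which carries the heme and copper site where oxygen is reduced, stood at 16559, 17297 and 15694 against 11040, 9812 and 9451 normalized CPM. Every IL-11+ library was below every IL-11- library (log2 fold change -0.71, SE 0.181, adjusted p = 0.0105). *MT-Co2*, which takes electrons from cytochrome c, stood at 5675, 5430 and 4933 against 3472, 3064 and 3600 (log2 fold change -0.66, adjusted p = 0.0121), and *MT-Co3*, a core subunit without a metal site, at 7996, 8272 and 7235 against 4696, 4337 and 4455 (log2 fold change -0.80, adjusted p = 0.00298). The groups did not overlap for either gene. Without IL-11- replicate 2 and without IL-11+ replicate 2, adjusted p was 0.0983 and 0.0766 for *MT-Co1* and 0.0783 and 0.0937 for *MT-Co2*, which also lost its call without IL-11- replicate 1 (adjusted p = 0.0612).

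For complex V, *MT-Atp6*, which forms the proton path of the ATP synthase, stood at 3636, 2989 and 2323 against 2048, 1608 and 1862 normalized CPM. The IL-11- libraries were spread widely, and the log2 fold change was -0.70 (SE 0.19, adjusted p = 0.0165). *MT-Atp8*, a small membrane subunit, stood at 10436, 10751 and 9246 against 7308, 6335 and 5907 (log2 fold change -0.64, SE 0.18, adjusted p = 0.0201). Leaving out IL-11- replicate 1, IL-11- replicate 2 or IL-11+ replicate 2 ended both calls, with adjusted p = 0.115, 0.0783 and 0.111 for *MT-Atp6* and 0.0819, 0.137 and 0.109 for *MT-Atp8*, whose call was also lost without IL-11+ replicate 3 (adjusted p = 0.0739). Both genes had non-overlapping groups, as did 12 of the 15 tested MT- genes, all with lower IL-11+ values, against 16.7% of all tested genes with lower and 14.5% with higher non-overlapping IL-11+ values.

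The 2 ribosomal RNAs of the mitochondrial ribosome had the most variable values. *MT-Rnr1*, the small-subunit ribosomal RNA, stood at 9443, 12655 and 4201 normalized CPM in IL-11- replicates 1, 2 and 3 and at 5051, 5766 and 2406 in IL-11+ replicates 1, 2 and 3. *MT-Rnr2*, the large-subunit ribosomal RNA, stood at 16377, 18810 and 9718 against 10037, 7265 and 6499. For both, IL-11- replicate 3 was lower than at least 1 IL-11+ library, so the groups overlapped. Between libraries of the same replicate number, both were lower in the IL-11+ library in 3 of 3 pairs. Log2 fold changes were -0.99 (SE 0.326, adjusted p = 0.0459) and -0.92 (SE 0.238, adjusted p = 0.0121), and with the replicate block -0.95 (SE 0.132, adjusted p = 1.29e-07) and -0.89 (SE 0.14, adjusted p = 1.93e-06). Over the 17 other settings, adjusted p ran from 1.29e-07 to 0.331 and from 1.93e-06 to 0.136. *MT-Rnr1* lost its call without IL-11- replicates 1 and 2 and IL-11+ replicates 1 and 3 (adjusted p = 0.121, 0.331, 0.0605 and 0.156) and in DESeq2 (adjusted p = 0.283), and *MT-Rnr2* without IL-11- replicates 1 and 2 and IL-11+ replicates 2 and 3 (adjusted p = 0.057, 0.136, 0.0805 and 0.052). The 16 transfer RNA rows, from *MT-Ta* to *MT-Tvvaline*, did not pass the filter. The highest of their counts was 13 tags, for *MT-Tl1* in IL-11- replicate 3, and *MT-Tl1* had 5, 8 and 13 against 2, 3 and 5 tags.

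The mix of MT- mRNA tags is given by each gene's share, without a test. *MT-Co1* made up 26.8% ± 1.08 of MT- mRNA tags in IL-11- and 27.1% ± 0.49 in IL-11+ libraries (SD, n = 3), and *MT-Co3* made up 12.7% ± 0.243 and 12.1% ± 0.533, with overlapping groups. The share of *MT-Cytb* was 9.92% ± 0.337 in IL-11- and 8.43% ± 0.725 in IL-11+ libraries, and that of *MT-Nd4l* was 4.42% ± 0.0706 and 3.92% ± 0.318, without overlap between the groups. *MT-Nd1* and *MT-Nd3* went the other way, from 4.17% ± 0.0242 to 4.75% ± 0.265 and from 1.02% ± 0.128 to 1.43% ± 0.228, also without overlap.

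Some MT- rows can share tags with each other or with nuclear copies of mitochondrial DNA. In GENCODE mouse release 21 (GRCm38), *MT-Atp8* (chromosome M, 7766 to 7969) and *MT-Atp6* (7927 to 8607) overlap by 43 bases, and *MT-Nd4l* (9877 to 10173) and *MT-Nd4* (10167 to 11544) by 7. The stretch common to *MT-Atp8* and *MT-Atp6* is shown because it is also the 5′ end of the *MT-Atp6* row, the side from which tags are read.
MT-Atp8 and MT-Atp6: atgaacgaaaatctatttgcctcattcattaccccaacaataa
*MT-Atp6* tags per *MT-Atp8* tag were 0.348, 0.278 and 0.251 in IL-11- and 0.28, 0.254 and 0.315 in IL-11+ libraries, which overlap. Within the first 300 bases of their annotated transcripts, all 50-base windows of *MT-Atp6*, *MT-Co2*, *MT-Co3* and *MT-Nd4*, 98.8% of those of *MT-Nd3* and *MT-Nd4l* and 31.1% of those of *MT-Co1* were also found in annotated nuclear transcripts, namely *Gm10925*, *Gm28661*, *Gm13341*, *Gm28437*, *Gm28439*, *Gm28438*, *Gm10222* and *Gm13340*. None of these 8 nuclear transcripts is among the symbols of the count tables, and values of these rows are uncertain to that extent. *MT-Cytb*, *MT-Nd1*, *MT-Nd2*, *MT-Nd5* and *MT-Nd6* shared no window. The same limit holds for some nuclear subunits, and 41 of the 114 members in all shared windows with transcripts of another gene. Among nuclear subunits named further on, *Cox7a2l* shared 30.3% of its windows, *Cox6a1* 13.3%, *Uqcrh* 5.75% and *Ndufc1* 3.41%.

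Nuclear subunits did not follow the MT- genes. Of the 83 nuclear rows, 77 passed the filter, each with 10 tags in a library of both groups, and 8 of them were higher in IL-11+ cells at an adjusted p under 0.05, against 6.84% of all tested genes. None was lower at that threshold in edgeR or DESeq2, against 8.7% of all tested genes in edgeR. At an unadjusted p under 0.05, 22 were higher and 2 were lower, against 12.2% and 14.5% of all tested genes. When the fold rule was added to the adjusted p, 2 were higher, *Cox6b2* and *Ndufa3*, against 3.44% of all tested genes. The median log2 fold change of the 77 genes was 0.18, against -0.01 for all tested genes. Of the 77, which are not independent replicates, 58 had a value above 0, against 4553 of all 9334 tested genes. With the replicate number as a block, 15 nuclear subunits were higher and 2, *Cox7a2l* and *Ndufa6*, were lower, against 9.33% of all tested genes called higher and 11.2% called lower in that fit. DESeq2 called 4 higher, and 5.09% of all genes. Without IL-11- replicates 1, 2 and 3, 3, 4 and 2 nuclear subunits were higher, against 4.79%, 4.73% and 5.63% of all genes, and without IL-11+ replicates 1, 2 and 3, 4, 4 and 5 were, against 5.26%, 5.05% and 5.95%. With the filter at 30 tags, 4 of 74 nuclear subunits were higher, against 9.35% of all genes. Library size only and upper quartile factors gave 4 and 5, against 5.17% and 6.21%. In these settings, in DESeq2 and with any library left out, the share called higher was thus close to or below that of all genes. Leaving out IL-11- replicate 3 also gave 2 lower calls by adjusted p alone, against 6.62% of all genes. It gave 1 higher call with a fold change over 2, against 3.24% of all genes. The rows that did not pass were *Atp5s*, *Cox7a1*, *Cox7b2*, *Cox8b* and the pseudogenes *Atp5c1-ps* and *Uqcrh-ps1*, none with more than 8 tags in a library. Without overlap between the groups, 26 of the 77 genes had higher and 2 had lower IL-11+ values, against 14.5% and 16.7% of all tested genes.

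**Figure D2:**
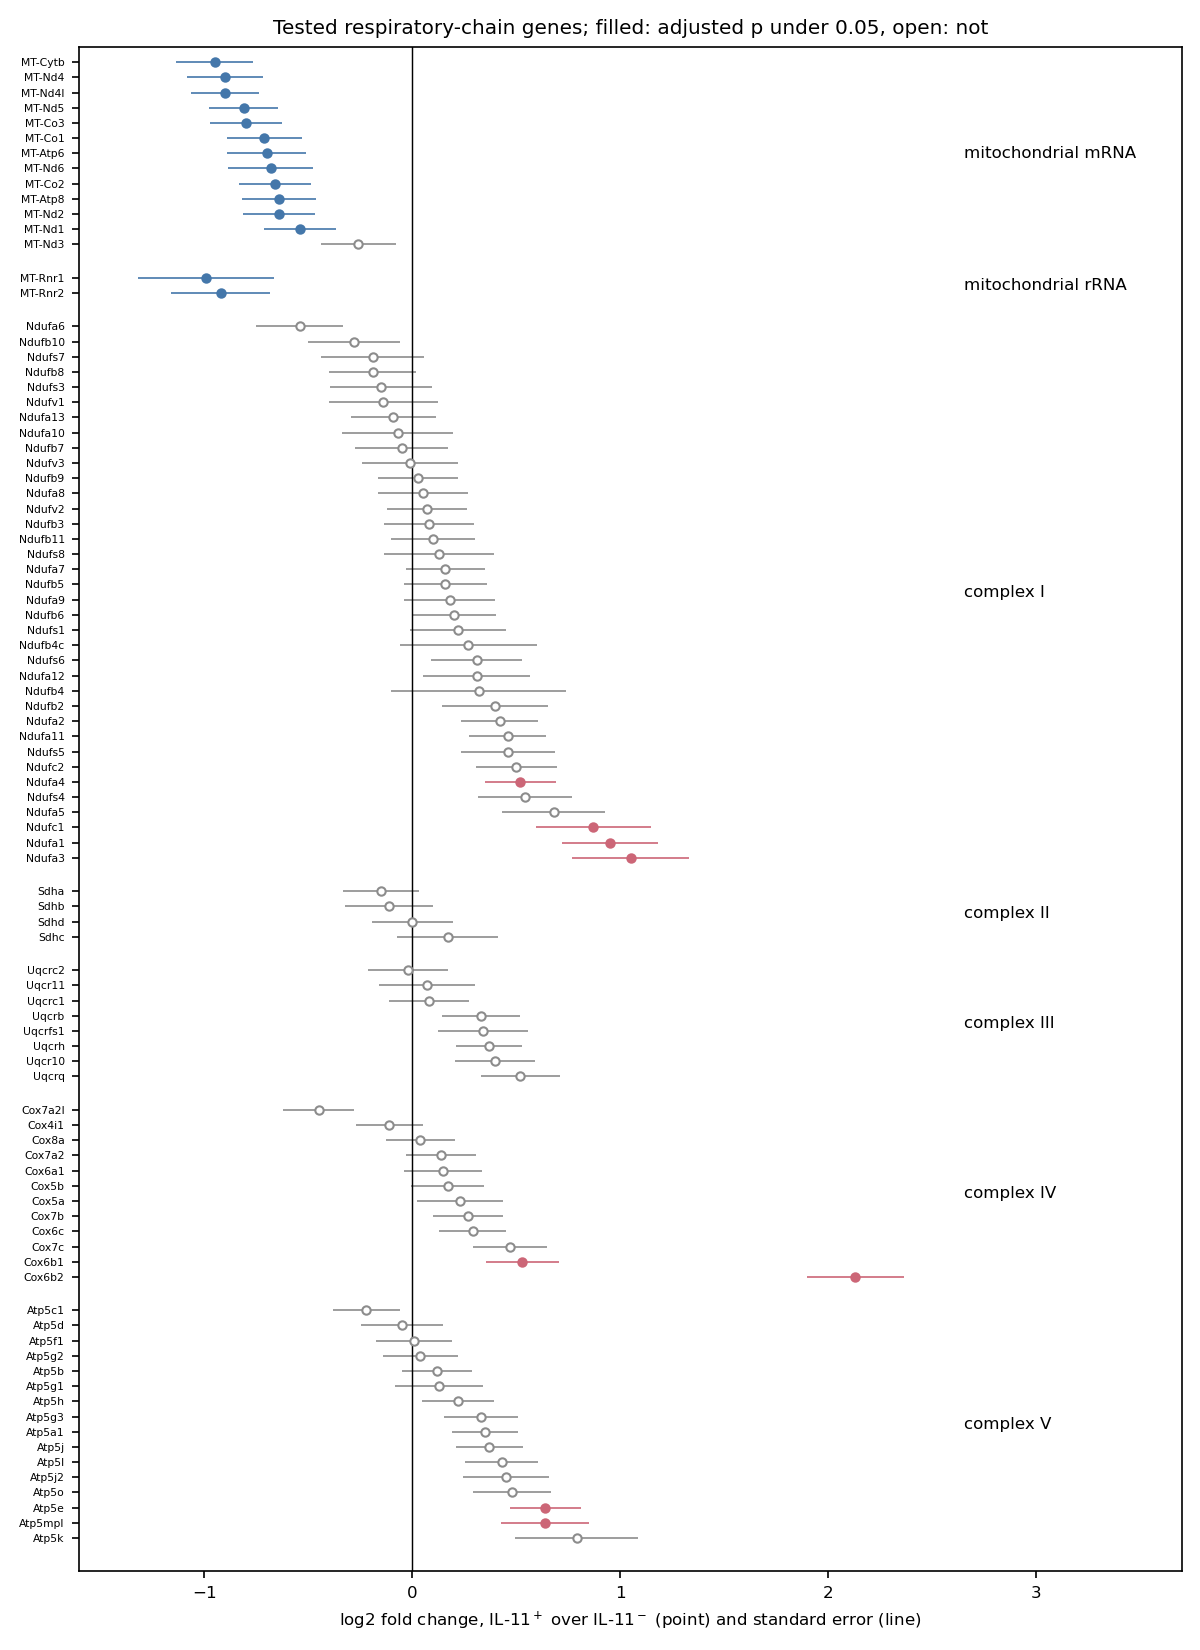
Log2 fold change of IL-11+ over IL-11- cells (x axis) for 91 of the 92 tested genes, grouped by RNA class and by complex as their symbols name it. Points are estimates of the fit to 6 libraries, lines are standard errors, and filled points have an adjusted p under 0.05. All 15 MT- genes lie below 0, between -0.99 and -0.26, and nuclear subunits lie between -0.54 and 2.13.

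Complex I had 37 nuclear rows, all tested, with a median log2 fold change of 0.16. Of these, 4 were higher in IL-11+ cells, against 6.84% of all tested genes, and 2 in DESeq2, against 5.09%. *Ndufa1*, a small accessory subunit of the membrane arm, stood at 68.7, 75.4 and 42.7 normalized CPM in IL-11- replicates 1, 2 and 3 and at 95.4, 107 and 157 in IL-11+ replicates 1, 2 and 3. IL-11- replicate 3 was the lowest and IL-11+ replicate 3 the highest library, and the log2 fold change was 0.95 (SE 0.23, adjusted p = 0.00695). *Ndufa3*, another accessory subunit, stood at 26.7, 39.6 and 15.6 against 64.7, 54.8 and 48.6 (log2 fold change 1.05, SE 0.282, adjusted p = 0.0152). *Ndufc1*, also an accessory subunit of the membrane arm, had 17, 24 and 22 against 29, 31 and 44 tags (log2 fold change 0.87, adjusted p = 0.0386). *Ndufa3* lost its call without IL-11- replicates 1 and 3 and IL-11+ replicate 1 (adjusted p = 0.0517, 0.0865 and 0.0609). *Ndufc1* lost it without IL-11- replicates 1, 2 and 3 and IL-11+ replicates 2 and 3 (adjusted p = 0.142, 0.0609, 0.11, 0.0624 and 0.151), in DESeq2 (adjusted p = 0.108) and with library size only (adjusted p = 0.0714). *Ndufa4*, named for complex I and known as a subunit of complex IV, stood at 116, 103 and 117 against 183, 157 and 140 normalized CPM (log2 fold change 0.52, adjusted p = 0.0462). Leaving out any library other than IL-11+ replicate 3 ended this call, with adjusted p = 0.103, 0.198 and 0.0831 without IL-11- replicates 1, 2 and 3 and 0.17 and 0.0999 without IL-11+ replicates 1 and 2. It was also lost in DESeq2, with the filter at 30 tags, with library size only and with upper quartile factors (adjusted p = 0.101, 0.0519, 0.106 and 0.0602). *Ndufa6*, an accessory subunit, stood at 108, 83.9 and 65.7 against 63.6, 50.8 and 62 normalized CPM. All of its IL-11+ values were lower, but its log2 fold change of -0.54 did not pass the test (adjusted p = 0.0956). It was called lower with the replicate block (adjusted p = 0.045) and without IL-11- replicate 3 (adjusted p = 0.0297), and over the 17 other settings its adjusted p ran from 0.0297 to 0.374. With the replicate block, 5 nuclear subunits of complex I were higher and 1 was lower, against 9.33% and 11.2% of all tested genes.

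Complex II has no subunit from the mitochondrial genome, and none of its 4 genes was called by edgeR in either direction, at an adjusted or an unadjusted p under 0.05, or by DESeq2. *Sdha*, the flavoprotein that oxidizes succinate, had 113, 108 and 120 against 73, 112 and 91 tags, so its groups overlapped (log2 fold change -0.15, adjusted p = 0.665). The 4 genes of this complex, which also include the iron-sulfur subunit *Sdhb* and the membrane anchors *Sdhc* and *Sdhd*, had log2 fold changes between -0.15 and 0.17. That of *Sdhb* was 0.10 without IL-11- replicate 3 and 0.01 without IL-11+ replicate 2, that of *Sdhc* was -0.11 without IL-11+ replicate 2, and that of *Sdhd* ran from -0.09 to 0.09 over the 17 other settings. Of complex III, 8 of 9 rows were tested, none was called by edgeR or DESeq2, and 2 were higher at an unadjusted p under 0.05, against 12.2% of all tested genes. *Uqcrh*, the hinge protein, had 222, 203 and 214 against 242, 240 and 259 tags. In normalized CPM its groups did not overlap, but the log2 fold change of 0.37 did not pass the test (adjusted p = 0.138). With the replicate block, 1 gene of complex III was higher, against 9.33% of all tested genes in that fit.

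Complex IV had 15 rows, 12 of them tested. *Cox6b2*, the isoform of subunit VIb that is known from the testis, stood apart from the other nuclear subunits. It stood at 22, 18.8 and 22.2 normalized CPM in IL-11- replicates 1, 2 and 3 and at 106, 102 and 70.6 in IL-11+ replicates 1, 2 and 3, and every IL-11+ library was over the highest IL-11- library. The log2 fold change was 2.13 (SE 0.232, adjusted p = 3.20e-06), and it was between 2.04 and 2.30 in the other 17 settings. *Cox6b1*, the widely expressed isoform of the same subunit, stood at 77.3, 94.2 and 75.5 against 124, 108 and 126 (log2 fold change 0.53, SE 0.174, adjusted p = 0.0443). Each left-out library ended this call, with adjusted p = 0.155, 0.0604 and 0.151 without IL-11- replicates 1, 2 and 3 and 0.106, 0.0578 and 0.108 without IL-11+ replicates 1, 2 and 3. It was also lost in DESeq2, with the filter at 30 tags, with library size only and with upper quartile factors (adjusted p = 0.119, 0.0503, 0.102 and 0.0585). With the replicate block, 3 genes of complex IV were higher and 1 was lower, against 9.33% and 11.2% of all tested genes.

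Other isoforms of complex IV did not pass the test. *Cox4i1*, the common isoform of subunit IV, had 292, 279 and 309 against 261, 222 and 245 tags (log2 fold change -0.11, adjusted p = 0.719). *Cox6a1*, *Cox7a2* and *Cox8a*, the isoforms known from liver and most other tissues, had log2 fold changes of 0.15, 0.14 and 0.04, and without IL-11- replicate 3 those of *Cox6a1* and *Cox8a* were -0.05 and -0.08. *Cox7a2l* stood at 195, 184 and 142 against 136, 121 and 124 normalized CPM. Its IL-11+ values were all lower, with a log2 fold change of -0.45 (adjusted p = 0.0901). It was called lower with the replicate block (adjusted p = 0.0374), without IL-11- replicate 3 (adjusted p = 0.03), with the filter at 30 tags (adjusted p = 0.0494) and with library size only (adjusted p = 0.0431), and over the 17 other settings its adjusted p ran from 0.03 to 0.253. The muscle isoforms *Cox7a1* and *Cox8b* did not pass the filter, with 0, 0 and 1 against 0, 0 and 2 tags and with 2, 2 and 2 against 0, 0 and 1 tags.

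*Cox4i2* and *Ndufa4l2*, left out by the rule, had fewer tags in IL-11+ cells. Both passed the filter only through the IL-11- libraries, so they are given by their tags. *Cox4i2*, the hypoxia-inducible isoform of subunit IV, had 20, 19 and 27 against 0, 1 and 2 tags. Summed over libraries and scaled, this is a ratio of 19.7 with an exact 95% counting interval of 6.45 to 97.9. *Ndufa4l2*, a paralog of *Ndufa4* induced by hypoxia, had 21, 36 and 29 against 3, 1 and 1 tags, a ratio of 15.4 with an interval of 6.35 to 48.6. Both stand on the pericyte marker list described further on.

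Complex V had 18 rows, 16 of them tested, with a median log2 fold change of 0.34. *Atp5e*, the small epsilon subunit of the central stalk, stood at 110, 123 and 92 normalized CPM in the IL-11- libraries and at 167, 178 and 161 in the IL-11+ libraries. The groups were well separated (log2 fold change 0.64, SE 0.17, adjusted p = 0.0137), and the call was lost without IL-11- replicate 3 and without IL-11+ replicate 2 (adjusted p = 0.0743 and 0.0566). *Atp5mpl*, a small membrane protein of the ATP synthase, stood at 70.7, 76.3 and 46 against 120, 85.3 and 95.4 (log2 fold change 0.64, SE 0.211, adjusted p = 0.0456). Its adjusted p was 0.0771, 0.0588 and 0.217 without IL-11- replicates 1, 2 and 3 and 0.182 and 0.0596 without IL-11+ replicates 1 and 3, and it was 0.102 in DESeq2, 0.0541 with the filter at 30 tags, 0.0785 with library size only and 0.0559 with upper quartile factors. *Atp5a1*, the alpha subunit of the catalytic head and the one with the most tags of this complex, had 319, 301 and 392 against 356, 357 and 443 tags (log2 fold change 0.35, adjusted p = 0.159). With the replicate block, 6 genes of complex V were higher, against 9.33% of all tested genes in that fit.

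The median of the longest GENCODE transcripts was 700 nt for the 8 nuclear subunits that were higher and 1046 nt for the other 69, a difference that was not tested. *Atp5e*, *Ndufc1* and *Ndufa4*, at 1697, 1249 and 1232 nt, were longer than either median. Across the 77 genes, which are not independent replicates, Spearman's rho of transcript length and log2 fold change was -0.28, and across the 9056 tested genes with a length it was -0.08. Tested genes of up to 700 nt had a median log2 fold change of 0.16 (166 genes), and the 17 nuclear subunits of that length had 0.40. The part of transcript length in the result was not tested.

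*Cox6b2* lies close to *Il11*, the gene of the reporter. In GRCm38 it spans chromosome 7, 4751792 to 4753094, on the minus strand, 19279 bases from *Il11* (4772373 to 4782859, minus strand). Since the transgene is a bacterial artificial chromosome with *Il11* in it, the genes within 50 kb were looked up, after the values of *Cox6b2* had been seen. The count tables hold 7 genes there besides *Il11* and *Cox6b2*. Of these, 3 were tested, and 2 of the 3 had higher values in every IL-11+ than in every IL-11- library, against 14.5% of all tested genes. The other 4 did not pass the filter, with at most 22 tags in a library. *Tmem190*, 78 bases from *Il11*, had 0, 0 and 1 against 22, 16 and 8 tags, a ratio of 51.4 with an exact 95% interval of 8.78 to 2074. *Tmem238*, at 1698 bases, had 0, 1 and 1 against 6, 12 and 8 tags, a ratio of 14.5 with an interval of 3.64 to 126. *Fam71e2*, between *Cox6b2* and *Il11*, had 0 tags in each IL-11- library and 3, 1 and 7 in the IL-11+ libraries. That is at least 4.1-fold higher against a floor of 3 tags over the group. *Tmem190* and *Tmem238* summed to 1 and 2 tags in the IL-11- group, under this floor. Their ratios are therefore uncertain, and the intervals cover counting error only. *Rpl28*, a ribosomal protein gene 10015 bases away, stood at 529, 623 and 485 against 1445, 1132 and 1004 normalized CPM (log2 fold change 1.13, adjusted p = 0.00021). *Ube2s*, a ubiquitin-conjugating enzyme of the anaphase-promoting complex, had non-overlapping groups but did not pass the test (log2 fold change 0.40, adjusted p = 0.127). *Kmt5c*, a histone methyltransferase at 24859 bases, had overlapping groups (log2 fold change 0.49, adjusted p = 0.532). The study names the clone used for the transgene, but the clone's coordinates are not given in the sources used here. Tags of the transgene and of the native locus were not separated, and the part of the transgene in these values was not tested. Without *Cox6b2*, 7 of 76 nuclear subunits were higher at an adjusted p under 0.05, against 6.84% of all tested genes. The median log2 fold change of the 76 was 0.17.

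**Figure D3:**
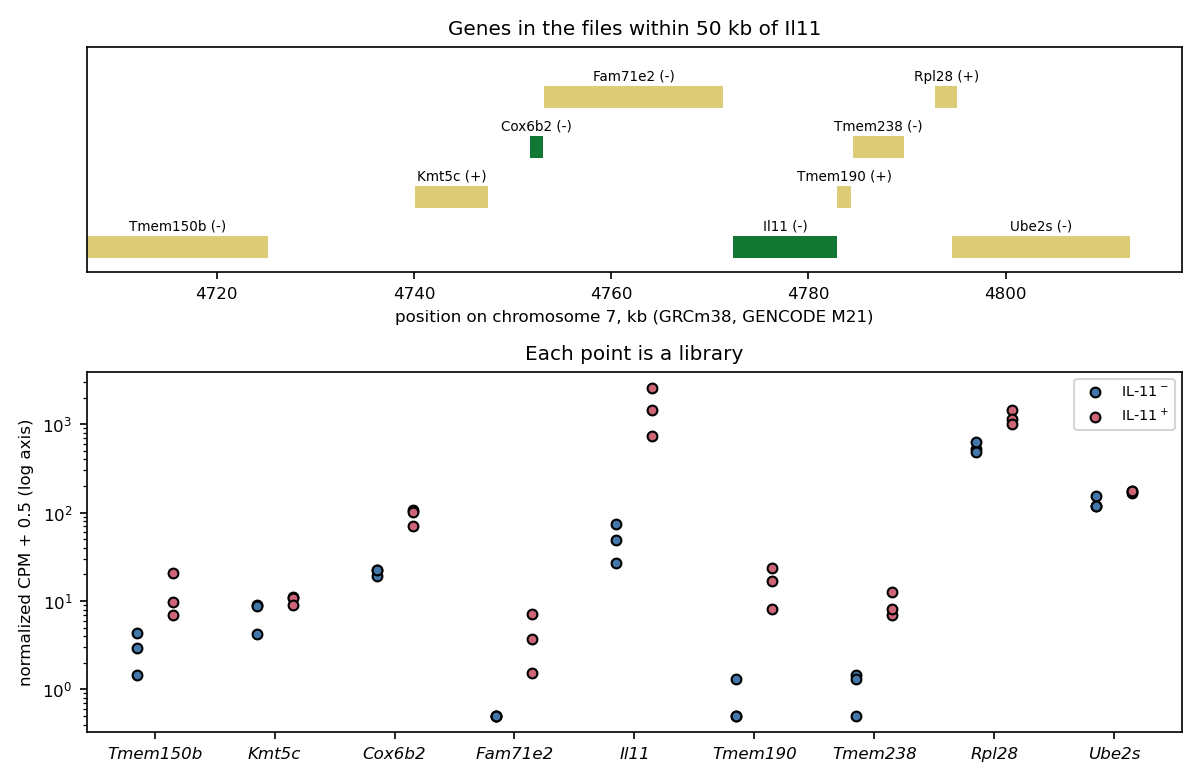
Genes of the count tables within 50 kb of *Il11* on chromosome 7 (upper panel, position in kb, strand in brackets) and their normalized CPM plus 0.5 in each library on a log axis (lower panel). Each point is a library, and 3 of the 7 genes other than *Il11* and *Cox6b2* were tested.

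Promoters of nuclear members were looked up in RefSeq (GRCm38.p6, 250 bases before to 50 after the gene start), where 68 of the 83 were found. Letters known for factors of respiratory-chain genes were searched on both strands. GCGCNTGCG, the core bound by NRF1, was in 33.8% of these genes and in 7.12% of all 27025 genes with a promoter. CCGGAAG, bound by GABP and other ETS factors, was in 23.5% and 9.93%, AAGATGGCG, bound by YY1, in 10.3% and 1.64%, and TCAAGGTCA, bound by estrogen-related receptors, in 2.94% and 0.466%. Among the 7 matched genes that were higher in IL-11+ cells, 0 had the NRF1 letters, 2 had the ETS letters and 1 had the YY1 letters. A match is a description of the sequence only. The promoters of *Cox6b2* (chr7:4753045-4753344, minus strand), of *Atp5e* (chr2:174464052-174464351, minus strand) and of *Ndufc1* (chr3:51408906-51409205, minus strand) are shown as a gene with none of these letters and 2 genes with a match, with the match in capitals.
Cox6b2: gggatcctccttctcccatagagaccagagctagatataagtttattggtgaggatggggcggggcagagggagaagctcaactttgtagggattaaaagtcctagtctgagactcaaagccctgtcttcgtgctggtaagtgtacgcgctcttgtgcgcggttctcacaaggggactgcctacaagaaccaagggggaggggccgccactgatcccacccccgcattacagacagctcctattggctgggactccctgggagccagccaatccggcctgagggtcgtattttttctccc
Atp5e: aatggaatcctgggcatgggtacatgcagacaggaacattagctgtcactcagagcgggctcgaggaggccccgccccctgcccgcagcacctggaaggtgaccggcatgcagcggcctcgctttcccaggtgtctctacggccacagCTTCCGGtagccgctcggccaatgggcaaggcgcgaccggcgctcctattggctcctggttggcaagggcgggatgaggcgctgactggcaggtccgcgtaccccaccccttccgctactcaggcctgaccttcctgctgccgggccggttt
Ndufc1: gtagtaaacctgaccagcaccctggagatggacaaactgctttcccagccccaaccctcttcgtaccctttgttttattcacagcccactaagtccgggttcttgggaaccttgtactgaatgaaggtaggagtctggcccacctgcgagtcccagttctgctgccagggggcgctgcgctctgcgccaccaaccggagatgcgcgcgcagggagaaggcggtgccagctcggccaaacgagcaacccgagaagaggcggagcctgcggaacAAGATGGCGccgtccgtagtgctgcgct

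Other mitochondrial gene lists gave few calls. A gene that reached 10 tags in only 1 group had to differ in tags to be tested. The counts below therefore cover genes that reached it in both. Their background is 6.79% called higher and 6.81% called lower by adjusted p alone, and 12.2% in either direction by unadjusted p. With the replicate block, 9.33% of all tested genes were called higher and 11.2% lower. Of 31 assembly factors with 10 tags in both groups, 1 was higher and 1 was lower. *Cox17*, a copper chaperone of complex IV, had 16, 22 and 10 against 36, 29 and 32 tags (log2 fold change 1.16, adjusted p = 0.0196). *Surf1*, another assembly factor of this complex, had 26, 40 and 35 against 10, 19 and 15 tags (log2 fold change -1.04, adjusted p = 0.03). *Cox17* lost its call without IL-11- replicates 1 and 3 and IL-11+ replicate 1 (adjusted p = 0.055, 0.107 and 0.0718), and *Surf1* without IL-11- replicates 2 and 3 and IL-11+ replicates 1 and 3 (adjusted p = 0.151, 0.05, 0.125 and 0.0737) and in DESeq2 (adjusted p = 0.0867). *Pet100*, which helps to assemble the same complex, had 6, 8 and 7 against 19, 20 and 21 tags and passed the filter only through the IL-11+ libraries.

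Genes that maintain and transcribe mitochondrial DNA, the machinery behind the MT- transcripts, gave no call among 14 such genes in edgeR, none at an unadjusted p under 0.05 and none in DESeq2, with a median log2 fold change of -0.08. Of 13 regulators of mitochondrial biogenesis, none was higher by edgeR, by DESeq2 or at an unadjusted p under 0.05, and 1 was lower. *Myc*, a transcription factor of growth genes, had 114, 83 and 120 against 47, 46 and 43 tags (log2 fold change -1.06, adjusted p = 0.000943). A further 2 regulators passed the filter only through the IL-11- libraries, and 1 of them, *Prkaa2*, a catalytic subunit of AMP-activated kinase, had 15, 12 and 14 against 3, 2 and 0 tags. None of 18 tested genes of the tricarboxylic acid cycle was called by edgeR or DESeq2, 2 were lower at an unadjusted p under 0.05, and 1 was lower with the replicate block.

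Of 16 tested electron carriers and enzymes of accessory electron input, *Etfa*, which passes electrons from fatty acid oxidation, was lower with 98, 102 and 119 against 51, 64 and 59 tags (log2 fold change -0.71, adjusted p = 0.00948). With the replicate block, 1 gene of this list was higher and 2 were lower. Of 25 tested protein import genes, *Tomm6*, a small subunit of the outer membrane translocase, was higher (log2 fold change 0.89, adjusted p = 0.00601), and 2 genes of the list were higher with the replicate block. Of 75 proteins of the mitochondrial ribosome, *Mrpl52* and *Mrps33* were higher (log2 fold changes 0.92 and 0.96, adjusted p = 0.00808 and 0.0275), and the median of the list was 0.11. *Mrpl52* lost its call without IL-11- replicate 3 (adjusted p = 0.0526), and *Mrps33* without IL-11- replicates 2 and 3 and IL-11+ replicates 2 and 3 (adjusted p = 0.0511, 0.141, 0.0606 and 0.106) and in DESeq2 (adjusted p = 0.0687). Of 11 subunits and inhibitors outside the symbol rule, *Slc25a5*, an ADP/ATP carrier, and *Usmg5*, a small ATP synthase protein, were higher (log2 fold changes 0.52 and 0.61, adjusted p = 0.0328 and 0.0389). *Slc25a5* was called without IL-11+ replicate 3, and its adjusted p was 0.146, 0.0967 and 0.0707 without IL-11- replicates 1, 2 and 3 and 0.107 and 0.0568 without IL-11+ replicates 1 and 2 and 0.0783 with library size only. *Usmg5* was called without IL-11- replicate 2, and its adjusted p was 0.152 and 0.16 without IL-11- replicates 1 and 3 and 0.0592, 0.0546 and 0.133 without IL-11+ replicates 1, 2 and 3. In DESeq2, with library size only and with upper quartile factors it was 0.102, 0.0855 and 0.0508.

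Of 20 genes of fission, fusion and turnover, *Pink1*, a kinase that marks damaged mitochondria, was lower with 100, 85 and 69 against 37, 39 and 45 tags (log2 fold change -0.92, adjusted p = 0.00707). *Bnip3l*, a receptor for mitophagy, was higher (log2 fold change 0.69, adjusted p = 0.0384). *Pink1* lost its call without IL-11- replicate 1 (adjusted p = 0.0521), and *Bnip3l* without IL-11- replicates 2 and 3 and IL-11+ replicate 1 (adjusted p = 0.217, 0.141 and 0.208), in DESeq2, with the filter at 30 tags and with library size only (adjusted p = 0.0616, 0.0505 and 0.0679). With the replicate block, 2 genes of this list were lower. Of 10 tested mitochondrial antioxidant genes, 2 were higher, and with the replicate block 1 was lower. *Sod2*, the superoxide dismutase of the matrix, had 402, 450 and 447 against 723, 762 and 939 tags (log2 fold change 1.05, adjusted p = 0.000141), and *Prdx5*, a peroxiredoxin, had 160, 115 and 151 against 415, 245 and 311 tags (log2 fold change 1.35, adjusted p = 0.000141).

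Markers of other cell types that the gate lets through differed between the same libraries. Of 10 smooth muscle markers, 8 reached 10 tags in both groups, and 7 of these were lower in IL-11+ cells. The summed level of all 10, whether or not they passed the filter, was 2391, 2908 and 3693 normalized CPM in IL-11- libraries. In IL-11+ libraries it was 126, 184 and 354. The one with the most tags was *Myh11*, smooth muscle myosin, with 850, 943 and 1332 against 18, 18 and 84 tags. Of 9 pericyte markers, 5 reached 10 tags in both groups, of which 3 were lower and 2 were higher. The summed level of all 9, whether or not they passed the filter, was 2543, 2212 and 2028 against 946, 793 and 702 normalized CPM. *Rgs5*, a regulator of G protein signaling, led this list with 1951, 1700 and 1800 against 186, 174 and 206 tags. Among markers with 10 tags in both groups, *Des*, *Tagln*, *Myh11*, *Lmod1* and *Actg2* were lower smooth muscle genes and *Rgs5*, *Mcam* and *Cspg4* the lower pericyte genes. *Abcc9* and *Kcnj8*, subunits of a potassium channel, were the higher pericyte genes, with 325, 275 and 267 against 469, 391 and 373 tags (log2 fold change 0.66, adjusted p = 0.0167) and with 145, 115 and 100 against 213, 191 and 125 tags (log2 fold change 0.71, adjusted p = 0.0394). *Abcc9* lost its call without IL-11- replicates 2 and 3 and IL-11+ replicate 1 (adjusted p = 0.0907, 0.0856 and 0.0811). *Kcnj8*, whose groups overlapped, lost it without IL-11- replicates 2 and 3 and IL-11+ replicates 1 and 2 (adjusted p = 0.141, 0.183, 0.185 and 0.127), in DESeq2, with the filter at 30 tags and with library size only (adjusted p = 0.0576, 0.0523 and 0.0627). Of the first list, 2 genes, *Cnn1* among them, passed the filter only through the IL-11- libraries. The same held for *Notch3*, *Ndufa4l2* and *Cox4i2* of the second.

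Of 3 markers of interstitial cells of Cajal, 2 reached 10 tags in both groups and both were lower. The third passed the filter only through the IL-11- libraries. All 3 together summed to 271, 168 and 258 against 21.2, 20.3 and 50.5 normalized CPM. They were led by *Ano1*, a chloride channel, with 152, 93 and 196 against 1, 0 and 15 tags. Of 6 glial markers, 1 passed the filter, only through the IL-11- libraries. Their summed level was 48.7, 48.1 and 59.9 against 3.18, 1.02 and 1.91 normalized CPM, led by *Gfap*, an intermediate filament protein, with 22, 23 and 26 against 1, 0 and 1 tags. Fibroblast markers were present in all libraries. Of 10, 4 were higher and 2 were lower, with a summed level of 24845, 24968 and 27415 against 43376, 35520 and 31912 normalized CPM, led by *Dcn*, a matrix proteoglycan, with 14029, 11620 and 14508 against 24693, 16830 and 15091 tags. The higher ones were *Pdpn*, *Col3a1*, *Thy1* and *Dcn*, and the lower ones *Dpt* and *Lum*. *Thy1* lost its call without IL-11- replicates 1 and 2 (adjusted p = 0.0521 and 0.0768), and *Lum* without IL-11- replicates 2 and 3 and IL-11+ replicates 1 and 2 (adjusted p = 0.0838, 0.186, 0.137 and 0.0888). *Dcn* kept its call without IL-11+ replicate 3, and its adjusted p was 0.108, 0.264 and 0.0935 without IL-11- replicates 1, 2 and 3 and 0.176 and 0.083 without IL-11+ replicates 1 and 2. With the filter at 30 tags and with upper quartile factors it was 0.0693 and 0.0526.

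Markers of the cell types that were gated out, and those of mesothelium and neurons, which were not, are given by their summed levels. Leukocyte markers summed to 33.4, 45.2 and 30.4 against 43.5, 23.4 and 26.7 normalized CPM, led by *Cd74*, with 1 of 10 tested and lower. Endothelial markers summed to 43, 27.3 and 37.8 against 18, 8.12 and 6.68 normalized CPM, led by *Tek*, with 1 of 6 tested and lower. *Cd74* lost its call without IL-11- replicates 1 and 2 and IL-11+ replicates 1 and 2 (adjusted p = 0.0535, 0.237, 0.17 and 0.142), in DESeq2 (adjusted p = 0.0977) and at 10 tags summed over libraries (adjusted p = 0.0527), and *Tek* without IL-11+ replicate 2 (adjusted p = 0.0511). Epithelial markers summed to 7.64, 2.83 and 20.5 against 4.24, 6.09 and 6.68, led by *Lgr5*, and erythroid markers to 98.3, 0 and 318 against 20.1, 2.03 and 20, led by *Hbb-bs*. None of the epithelial and erythroid markers passed the filter, and IL-11- replicate 3 had the highest erythroid level. Mesothelial markers summed to 13.4, 5.65 and 22.2 against 0, 0 and 1.91 normalized CPM, led by *Wt1*, and neuronal markers to 3.82, 9.42 and 17.2 against 5.3, 3.05 and 5.72, led by *Tubb3*, and none of them was tested. In each of these lists, every gene found in the count tables had a tag in at least 1 library.

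Most genes induced by tissue dissociation and stress were lower in IL-11+ cells, as MT- genes were. All 13 were tested, 10 were lower in IL-11+ cells and none was higher by edgeR, DESeq2 or an unadjusted p under 0.05, with a median log2 fold change of -0.78. Their summed level was 26157, 27577 and 19740 normalized CPM in IL-11- and 14991, 16464 and 14152 in IL-11+ libraries, and *Egr1*, an immediate early transcription factor, led the list in tags with 6304, 6178 and 5116 against 3276, 3817 and 3855 tags. *Egr1* itself was not called (log2 fold change -0.54, adjusted p = 0.0554) but was in 6 of 17 other settings, namely without IL-11- replicate 3 and with the replicate block, DESeq2, the filter at 30 tags, library size only and upper quartile factors (adjusted p = 0.0108, 0.00288, 0.0335, 0.039, 0.0138 and 0.0414), and over all 17 its adjusted p ran from 0.00288 to 0.243. The genes with the smallest p were *Atf3*, *Junb*, *Fos*, *Ier2*, *Fosb* and *Jund*. Nuclear ribosomal RNA rows held 5.95% ± 0.453 of tags in IL-11- and 6.84% ± 0.229 in IL-11+ libraries (SD, n = 3). The part of these cell types, of the dissociation response and of ribosomal RNA in the lower MT- transcripts and in the higher nuclear subunits was not tested.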

How the data were processed

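Per the labels and the study's methods, the authors trimmed the reads (cutadapt 1.18), aligned them to RefSeq mm10 RNA in a single orientation (Bowtie2 2.2.5) and deposited raw tag counts for each of 20327 gene symbols. R 3.5.1 is named for their comparison. How tags that map to several genes were treated is not given in the sources used here. Totals ranged from 1022851 to 1169817 tags. A floor of 3 tags is worth 2.56 to 2.93 CPM. Intervals and floors cover counting error only.

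Counts as deposited were fitted in R 4.3.3 with edgeR 4.0.16 (TMM, glmQLFit, glmQLFTest), keeping genes that reached 10 tags in 3 or more libraries, with Benjamini-Hochberg adjustment over all of them. The script was tested on simulated data. Library sizes were the tags on tested genes, a choice made after the calls over all genes of this fit and of a fit with all tags were seen. Standard errors are the absolute log2 fold change over the square root of the F statistic. Shares and intervals used Python 3.11.15 with scipy 1.17.1. Positions and lengths come from GENCODE mouse release 21, where 111 of 114 members were found.

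Replicate numbers come from the labels. Deviations from the group means of same-numbered libraries correlated with r of 0.23, 0.19 and 0.27 (5063 genes averaging 30 tags or more), so the numbers were taken as pairs in the fit with a replicate block.

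Members and lists were chosen with earlier results of these data known. Named genes are each MT- row, nuclear subunits with an adjusted p under 0.05, the gene with the most tags in each complex, a list of tissue isoforms, members that failed the filter, up to 6 called genes of each other list by smallest p, and *Il11*. *Cox6a2* and *Cox8c*, on the isoform list, are not analysed here, and 2 other genes are not reported here. *Ndufa6*, *Sdhb*, *Sdhc*, *Sdhd*, the neighbours of *Il11*, *Abcc9*, *Kcnj8* and the leading genes of marker lists that had no such call were chosen after their values were seen. Lists covered assembly factors, mitochondrial DNA maintenance and transcription, biogenesis regulators, the tricarboxylic acid cycle, protein import, electron carriers, subunits and inhibitors outside the symbol rule, fission, fusion and turnover, the mitochondrial ribosome and antioxidants. Marker lists covered fibroblasts, smooth muscle, pericytes, glia, interstitial cells of Cajal, mesothelium, epithelium, leukocytes, endothelium, erythroid cells, neurons and the dissociation response.

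Alternatives were RLE factors, upper quartile factors, library size only, iterative TMM (3 iterations, first-round adjusted p of 0.1, at least 5% of genes left out), library sizes without MT- and ribosomal RNA rows, DESeq2 1.42.0, other filters on low counts, the replicate block, each library left out, and another denominator for shares. Library sizes from all tags were added after seeing the data.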

Additional observations from a re-analysis of the deposited data

How the results depend on the processing

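Over the 17 other settings, the median log2 fold change of the rows tested in each stayed between -0.87 and -0.67 for MT- rows and between 0.10 and 0.27 for nuclear subunits. With no filter these were all 31 MT- and 83 nuclear rows. For the 13 MT- mRNAs and 2 ribosomal RNAs, all 255 values were below 0. With library size only, the median of all genes was -0.10, against -0.01. Of 1441 values of 87 named genes, 1273 kept their direction and side of the threshold, 139 lost their call, 12 gained one (*Cox7a2l*, *Egr1* and *Ndufa6*) and 17 changed sign (*Cox6a1*, *Cox8a*, *Sdhb*, *Sdhc* and *Sdhd*). The cause was not tested.

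MT- genes lower by adjusted p numbered 12 with DESeq2, 13 with no filter and 5 to 14 with a library left out. Of all genes, 6.51%, 4.93% and 5.07% to 8.07% were lower in these settings. With a fold change over 2 as well, MT- genes called lower numbered 1 with the filter at 30 tags and 2 with library size only. They numbered 1 with upper quartile factors and 0 to 4 with a library left out. Of all genes, 6.18%, 7.07%, 6.65% and 3.85% to 6.37% were then lower. Nuclear subunits higher by adjusted p numbered 4 with DESeq2, 4 with the filter at 30 tags and 4 with library size only. They numbered 5 with upper quartile factors, 9 with no filter, 15 with the replicate block and 2 to 5 with a library left out. The shares of all genes called higher were 5.09%, 9.35%, 5.17%, 6.21%, 3.99%, 9.33% and 4.73% to 5.95%. With a fold change over 2 as well, nuclear subunits called higher numbered 1 with library size only and 1 to 3 with a library left out. The shares of all genes were then 2.74% and 2.75% to 3.37%. Nuclear subunits lower by adjusted p numbered 1 with the filter at 30 tags and 1 with library size only. They numbered 2 with the replicate block and 0 to 2 with a library left out. The shares of all genes called lower were 11.1%, 9.72%, 11.2% and 5.07% to 8.07%. Among named genes, the replicate block changed the calls of *Cox7a2l*, *Egr1* and *Ndufa6* and no other.

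With MT- and ribosomal RNA tags taken out of the denominator, MT- rows held 10% of tags in IL-11- and 5.33% in IL-11+ libraries, and nuclear subunits 0.776% and 0.824%. Libraries of the 2 groups then overlapped for nuclear subunits, which they did not as a share of all tags. *Cox8a* was at -0.00 with the filter at 30 tags and at -0.04 with library size only. With a library left out, log2 fold changes ran from -0.05 to 0.26 for *Cox6a1*, from -0.08 to 0.12 for *Cox8a*, from -0.32 to 0.10 for *Sdhb*, from -0.11 to 0.37 for *Sdhc* and from -0.08 to 0.09 for *Sdhd*. *Sdhd*, close to 0 in the fit to all libraries, was at 0.01 with DESeq2, RLE factors or library sizes from all tags, at 0.02 with at least 10 tags summed over libraries, at 0.04 with no filter and at 0.00 with the replicate block or library sizes without MT- and ribosomal RNA rows. Transfer RNAs and the other members under the filter had few tags and were not tested in the main fit. At 10 tags summed over libraries, 16 MT- and 78 nuclear rows were tested.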
